A study of Mus musculus with 6 samples.

Results

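The 7 genes Ttr, Clic6, Kl, Folr1, Enpp2, Prlr and Aqp1 are known for their expression in the epithelium of the choroid plexus, and they were followed across the habenula preparations of this study, out of 17306 probe sets for genes. They were taken by name, and each had 1 probe set, numbered by the mouse gene it measures. Expression was measured on 6 Affymetrix arrays of dissected habenula from adult mice of 6 to 12 weeks. All mice were of the bacterial artificial chromosome (BAC) transgenic line Chat DW167, in which regulatory sequence of the choline acetyltransferase gene drives the ribosome tag, so there was no group without the tag and the tagged cells are those in which that transgene is active. Tagged ribosomes were pulled down from each preparation (translating ribosome affinity purification, TRAP). This ribosome-bound RNA, which the labels assign to medial habenula cholinergic neurons, was on 3 arrays (IP). The other 3 arrays (UB) hold RNA that stayed unbound, from each of these 3 preparations, and serve as the measure of all habenula tissue dissected. Each array started from 20 ng of RNA. The labels call the preparations biological replicates, and the sources used here do not say whether animals were pooled.

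The choroid plexus is a sheet of epithelial cells over a core of vessels that hangs into the brain ventricles and makes cerebrospinal fluid. The habenula borders the third ventricle, close to its choroid plexus. Ttr encodes transthyretin, the carrier of thyroid hormone and, through retinol-binding protein, of retinol, which the epithelium secretes. Enpp2 encodes autotaxin, a secreted enzyme that makes lysophosphatidic acid and that oligodendrocytes also make. Kl encodes klotho, a membrane protein that acts as a co-receptor for a circulating fibroblast growth factor and can be shed. Prlr encodes the prolactin receptor and Folr1 the folate receptor alpha, which carries folate across the epithelium. Clic6 encodes a member of the intracellular chloride channel family, and Aqp1 the water channel of the apical membrane.

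Reference promoter sequence from RefSeq (GRCm38.p6) was on hand for 3 of the 7 genes, Kl, Prlr and Aqp1. The 250 bases upstream of the Kl start and of the second of 3 Prlr starts are shown as windows of these genes in which a searched motif was found. Capitals mark matches on either strand to the motifs searched.
Kl, chr5:150952357-150952606, plus strand: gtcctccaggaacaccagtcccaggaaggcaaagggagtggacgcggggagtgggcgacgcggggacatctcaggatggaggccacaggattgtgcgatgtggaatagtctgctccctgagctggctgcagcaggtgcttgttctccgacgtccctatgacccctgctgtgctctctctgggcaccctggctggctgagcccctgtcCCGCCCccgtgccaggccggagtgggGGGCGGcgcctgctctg
Prlr, chr15:10223656-10223905, plus strand: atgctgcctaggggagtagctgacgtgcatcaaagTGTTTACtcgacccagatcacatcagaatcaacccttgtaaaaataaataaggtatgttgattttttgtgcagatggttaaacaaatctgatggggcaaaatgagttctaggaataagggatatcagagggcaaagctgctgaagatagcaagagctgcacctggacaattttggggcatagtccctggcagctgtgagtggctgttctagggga
The Kl window held GGGCGG, the core bound by Sp-family factors, 2 times, beginning 43 and 17 bases before the start, on opposite strands. Of all 32851 windows of this length, 32.7% held that motif. The Prlr window held GTAAACA, a forkhead motif, once, on the reverse strand, and 3.17% of all windows held it. The windows of the other Prlr starts held none of the motifs searched, and that of Aqp1 held GGGCGG once. TAATCC, the core that Otx-type homeodomain factors bind, was in 6.25% of all windows and in none of the 5 windows of these 3 genes. The same held for the cyclic AMP response element TGACGTCA (1.55% of all windows) and the TATA box TATAAA (12.4%). The motifs do not overlap in these windows, and a match is a description of the letters only.

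Ttr and Enpp2 were the only members that reached a linear level of 50 (5.64 on the log2 scale) on all 6 arrays, and both were lower in the ribosome-bound RNA. Ttr was 12.1-fold and Enpp2 22.6-fold lower in IP. Clic6, Kl, Folr1, Prlr and Aqp1 were under 50 on all 3 IP arrays, and of these Clic6 alone passed 50 on a UB array, that of preparation 1. In the UB arrays Ttr and Clic6 were not even: with levels under 50 set to 50, preparation 1 was 2.18-fold above the next for Ttr and at least 1.62-fold for Clic6. The fractions were also compared with no floor and with IP shifted by the mean difference of the biotinylated controls (0.016, log2). All 3 IP arrays then lay under all 3 UB arrays for 5 of the 7 genes (all but Kl and Aqp1). The same held for 36.5% of all probe sets and 46.6% of those tested, but Folr1 and Prlr were under 50 in both fractions. Between preparations, in such bulk samples, fewer cells of a type and less RNA per cell cannot be told apart.

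The deposited log2 level of Ttr (gene number 22139) was 10.43, 11.39 and 9.67 on IP arrays 1, 2 and 3, and 14.997, 13.37 and 13.87 on UB arrays 1, 2 and 3. All IP values lay under all UB values, with IP array 2 highest among the IP arrays and UB array 1 highest among the UB arrays. The mean was 10.48 ± 0.86 in IP and 14.08 ± 0.83 in UB (SD, n = 3 each, IP shifted by the offset of the biotinylated controls), a log2 difference of -3.60 ± 0.64 (SE; limma, adjusted p = 0.00553, 0.0268 with the preparation as a block). Ttr lost its call without both arrays of preparation 1 (-3.11, adjusted p = 0.0550) or of preparation 3 (-3.29, adjusted p = 0.0624). Without UB array 1 alone it was at -3.14 (adjusted p = 0.0159).

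Enpp2 (gene number 18606), the autotaxin gene, stood at 7.71, 8.45 and 7.77 on IP arrays 1, 2 and 3 and at 12.67, 12.34 and 12.36 on the UB arrays. The fractions did not overlap, and the UB values lay close together. Means were 7.96 ± 0.41 and 12.46 ± 0.19 (SD, n = 3), and the log2 difference was -4.50 ± 0.24 (limma, adjusted p = 5.43e-05), called under every alternative tried. Both genes that could be tested were thus called lower, where 43.5% of the 8960 tested probe sets were. By size, 10.3% of the tested probe sets had a lower log2 difference than Ttr and 6.51% a lower one than Enpp2, while the median over all tested probe sets was -0.17.

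**Figure D1:**
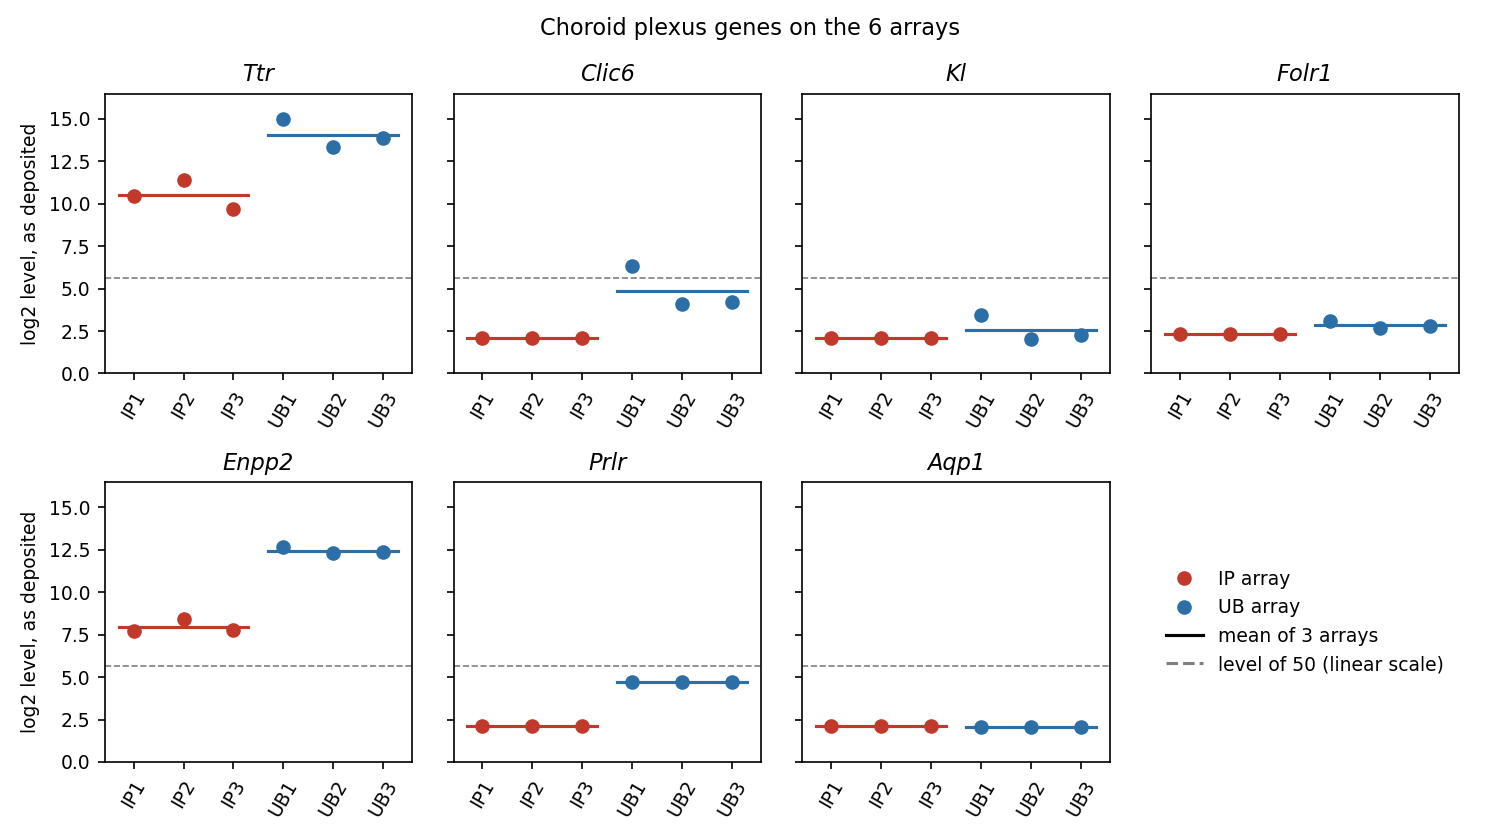
Deposited log2 level (vertical axis) of the 7 choroid plexus genes on the 3 IP and 3 UB arrays (horizontal axis), with a point per array, a line at the mean of each fraction, and a dashed line at a level of 50. Ttr and Enpp2 lie above the dashed line on all 6 arrays, Clic6 on UB array 1 only (6.34), and UB array 1 is the highest UB array for Ttr, Clic6 and Enpp2. Points under the dashed line have no usable order.

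Clic6 (gene number 209195) was at the lowest value of the IP arrays, 2.10, on all 3 of them, and at 6.34, 4.11 and 4.19 on UB arrays 1, 2 and 3. It did not enter the test, which asked for at least 3 arrays at 50, and no fold is given because the mean of each fraction was under 50. The folate receptor gene Folr1 (gene number 14275) was at 2.32 on all IP arrays and at 3.10, 2.66 and 2.79 on the UB arrays. Kl (gene number 16591) was at 2.10 on all IP arrays and at 3.45, 2.05 and 2.27 on the UB arrays, so its fractions overlapped. Folr1 and Kl were thus under 50 on every array, and no order of the preparations is read from them.

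The prolactin receptor gene Prlr (gene number 19116) was at 4.69 on all 3 UB arrays and at the lowest value, 2.10, on all IP arrays. Only 5526 of all 17306 probe sets had 3 different UB values, so its lack of spread is no measure of its evenness. Aqp1 (gene number 11826) was at the lowest value of each fraction on every array, 2.10 in IP and 2.05 in UB, so the water channel gene had no measured level. Its small difference is that between the lowest values of fractions that were normalized apart. With no filter on dim probe sets, Clic6, Folr1 and Prlr were called lower in IP beside Ttr and Enpp2, while 34.7% of all probe sets were, and Kl was not called (limma, adjusted p = 0.308). The same fit called Aqp1 higher in IP by 0.04 on the log2 scale (limma, adjusted p = 3.75e-14), although it was at the lowest value on all 6 arrays, so such calls of genes under 50 are no measure of their level.

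Evenness among the preparations was then compared with that of other genes at a similar level. The 3 UB values of Ttr spanned 1.63 on the log2 scale, more than 99.8% of the 500 tested probe sets nearest to it in mean UB level, whose median span was 0.19. Its 3 IP values spanned 1.73, more than 99.6% of the 500 nearest in IP, with a median span of 0.38. Enpp2 spanned 0.33 in UB and 0.74 in IP, wider than 66.0% and 86.6% of its neighbours. Ttr was therefore among the least even genes of its level in both fractions, while Enpp2 was not.

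The order of the preparations differed between the fractions for Ttr, since UB array 2 was its lowest UB array and IP array 2 its highest IP array. Within preparations, IP minus UB was -4.58, -1.99 and -4.22 for Ttr in preparations 1, 2 and 3. For Enpp2 it was -4.98, -3.91 and -4.60, so preparation 2 had the smallest difference for both genes. A difference between preparations that both fractions share was not called for Ttr (limma moderated F-test, adjusted p = 0.734) or Enpp2 (adjusted p = 0.783). That limma F-test called 0 of 8960 probe sets (0.00%), while 1214 (13.5%) passed 0.05 before adjustment.

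The UB array of preparation 1 was then set against the other 2, with levels under 50 set to 50. Of the 3 choroid plexus genes with a single highest UB array, Ttr, Clic6 and Enpp2, all 3 were highest on UB array 1, where 39.8% of the 6416 such probe sets were. UB array 1 was at least 2-fold above both other UB arrays for 1 of the 7 genes, Ttr (2.18-fold over the next array), against 0.139% of all 17306 probe sets. Clic6 exceeded the next array by at least 1.62-fold and Enpp2 by 1.24-fold. By the values as deposited the count was 3 of 7, with Clic6 and Kl, against 0.272% of all probe sets, but Kl was under 50 on every array. None of the 7 genes was 2-fold above on UB array 2 (0.0404%) or 3 (0.0347%), or on IP array 1, 2 or 3 (0.295%, 0.0289% and 0.0693%).

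At 1.5-fold, Ttr and Clic6 stood above on UB array 1 (0.913% of all probe sets), and Ttr and Enpp2 did on IP array 2 (0.150%). None of the 7 genes did on UB array 2 (0.526%) or 3 (0.0982%) or on IP array 1 (1.53%) or 3 (0.676%). These rules were chosen after the values were seen, and each comparison is of 1 array with 2 others, so no test was made. With each array centred on its own biotinylated controls, UB array 1 exceeded the mean of the other UB arrays by 0.87 for Ttr, less than 2-fold, and fell under it for Enpp2 (-0.18).

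Other genes listed for the choroid plexus were read for the same pattern. Of 90 such genes 86 had a named probe set, and 2 of the 86 were at least 2-fold above on UB array 1 with levels under 50 set to 50. Kcnj13, a potassium channel gene of the epithelium, was at 7.76 on UB array 1 and at 4.25 and 4.26 on the others, at least 4.34-fold higher. Ezr, which encodes the microvillus protein ezrin, was at 8.32 against 7.19 and 7.10. The secreted peptide gene Ecrg4 followed at 9.39 against 8.42 and 8.04, just short of 2-fold. By the values as deposited Kcne2, a potassium channel subunit gene, and F5, the coagulation factor V gene, passed too, but both were under 50 on every array. These genes were named after their values were seen.

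Other listed genes, also named after their values were seen, ran the opposite way on UB array 1. Ptgds, Clu and Cst3, secreted proteins that meninges and glia also make, were at 12.18, 12.71 and 13.10 on UB array 1 and higher on both other UB arrays (14.11 and 13.42 for Ptgds, 13.81 and 13.12 for Clu, 14.37 and 13.83 for Cst3). Over the choroid plexus lists, UB array 1 was the highest for 9 of 22 genes with a single highest UB array at 50 or more, near the 39.8% of all probe sets. The tight junction genes Cldn1, Cldn2 and Cldn3, the transcription factor gene Lmx1a and the bicarbonate transporter gene Slc4a5 were at or near the lowest value on all 6 arrays (at most 2.17). Of the 86 genes, 46 had no array at 50. The lists hold genes of other cells of this tissue as well, and their levels are not those of choroid plexus alone.

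**Figure D2:**
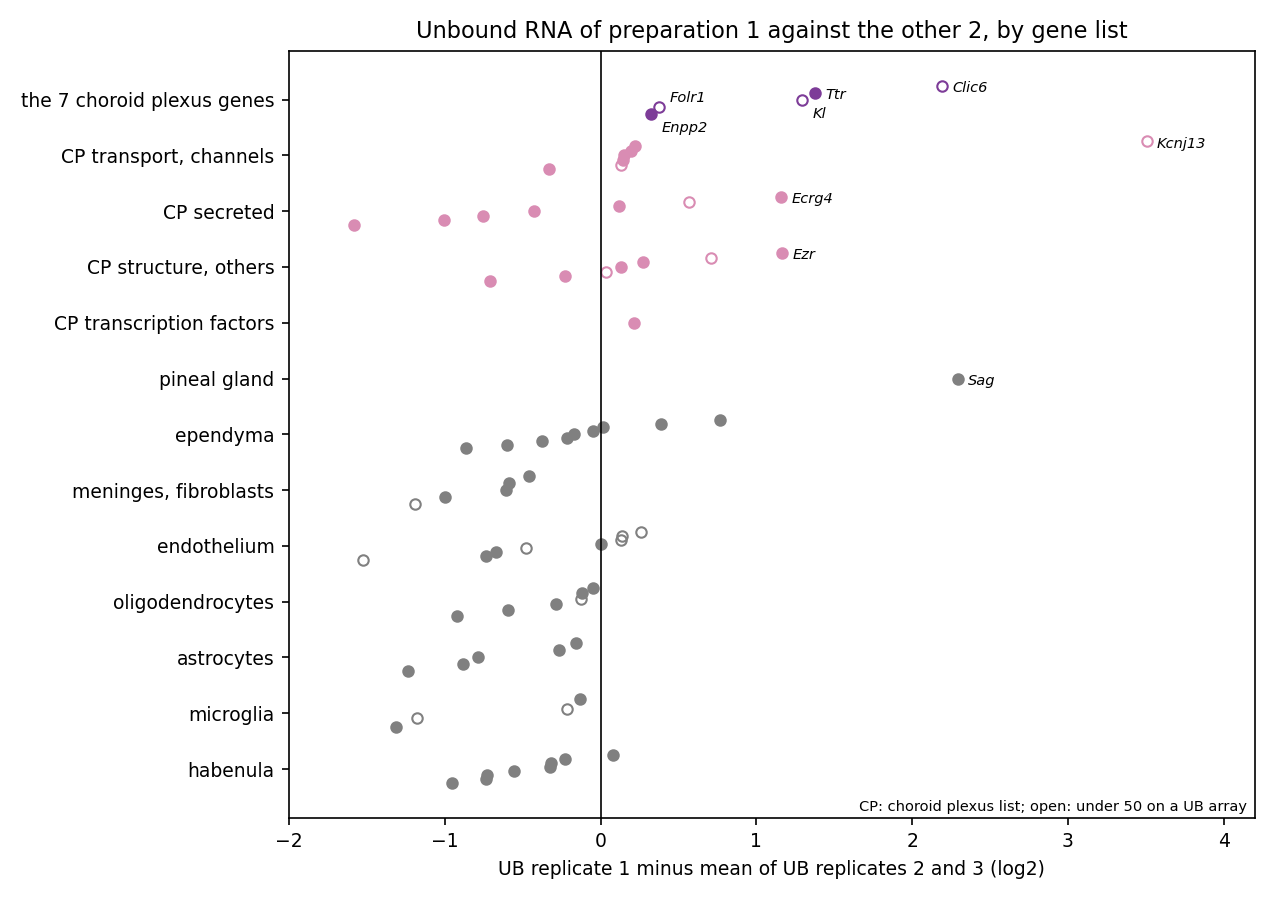
Log2 difference between UB array 1 and the mean of UB arrays 2 and 3 (horizontal axis) for each gene with 3 different UB values, by gene list (vertical axis), with a point per gene, names at 1 or more and for the 7 choroid plexus genes, and open points for genes under 50 on a UB array, whose differences are not measured. Among the filled points Ttr (1.38), Ecrg4 (1.16), Ezr (1.17) and Sag (2.29) lie to the right, and the genes plotted for the meningeal, oligodendrocyte, astrocyte and microglia lists lie under 0.

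In the ependymal, endothelial, meningeal, oligodendrocyte, astrocyte, microglial and habenular lists no gene was 2-fold above on UB array 1. Among genes with a single highest UB array at 50 or more, that array was UB array 1 for 2 of 11 ependymal, 0 of 6 endothelial, 0 of 4 meningeal, 2 of 9 oligodendrocyte, 0 of 7 astrocyte, 0 of 4 microglial and 0 of 9 habenular genes. The linear levels of the 11 habenula genes summed to 12783 on UB array 1 and to 20734 and 15358 on UB arrays 2 and 3. Sag, an arrestin gene of photoreceptors and of the pineal gland, which lies behind the habenula, stood at 9.19 on UB array 1 and at 7.09 and 6.69 on the others. Aanat, a melatonin synthesis gene, and Crx, a transcription factor gene of the pineal gland, were near the lowest value on all arrays (2.19 and 2.38 in UB). The 9 pineal genes summed to 684 on UB array 1 and to 232.5 and 199 on the others, most of it from Sag. Of these 9 genes, 7 had no array at 50. The part of these differences between the UB arrays in the levels of the choroid plexus genes was not tested.

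Between the fractions, of 37 tested genes of the choroid plexus lists, 28 were called lower in IP and 9 higher (limma, adjusted p under 0.05), where 43.5% of all tested probe sets were called lower and 30.9% higher. The median log2 difference was -2.36 over these genes and -0.17 over all tested probe sets, and -1.21 and -0.15 with levels under 50 set to 50. With the preparation as a block, 27 were lower and 9 higher. When both fractions were given the same median over all probe sets, which moves every log2 difference by 1.56, 6 of the 37 changed sign and 22 had a log2 difference under 0. With probe sets of equal values left out, 14 of 21 were called lower. With levels under 50 set to 50, 19 of the 37 were called lower by at least 2-fold, against 23.0% of all tested probe sets. Ttr and Enpp2 kept their direction under every scaling, at -2.04 and -2.94 with equal medians.

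Among transport and channel genes, 10 of 11 tested were lower and 1, the monoamine transporter gene Slc29a4, was higher. For a gene under 50 on every array of a fraction, 50 stood in for its level there, which gives a lower bound on the fold. Slco1c1, a thyroid hormone transporter gene, was at least 2.67-fold lower, the carbonic anhydrase gene Car14 at least 2.31-fold and the iodide transporter gene Slc5a5 at least 1.14-fold. Of 9 secreted proteins, 8 were lower and 1 higher. Transferrin (Trf), which oligodendrocytes make too, was at least 46.9-fold lower, Ecrg4 at least 7.83-fold and the growth factor binding protein gene Igfbp2 at least 3.94-fold. Of 11 structural and other genes, 7 were lower and 4 higher. The calmodulin-like gene Calml4 was at least 24.1-fold lower, the serotonin receptor gene Htr2c, also a lateral habenula gene, at least 6.71-fold and Mdfic at least 7.94-fold. Bounds near 1 rest on the scaling between the fractions.

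Transcription factors were split, with 3 of 6 lower and 3 higher. Hey2, Meis1 and Hes1 were at least 5.001-fold, 1.87-fold and 1.56-fold lower. Otx2, which the choroid plexus needs to form, was higher in IP by 1.23 ± 0.09 (log2 difference and SE, adjusted p = 0.000152), at 9.80, 9.92 and 9.92 against 8.78, 8.63 and 8.496. Sostdc1, a secreted inhibitor of BMP and Wnt signalling, was 13.0-fold higher in IP (10.16, 10.71 and 10.71 against 6.86, 6.86 and 6.72, adjusted p = 3.39e-05). These 2 genes, named after their values were seen, are choroid plexus genes by their list and were higher in the ribosome-bound RNA, opposite to Ttr and Enpp2.

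**Figure D3:**
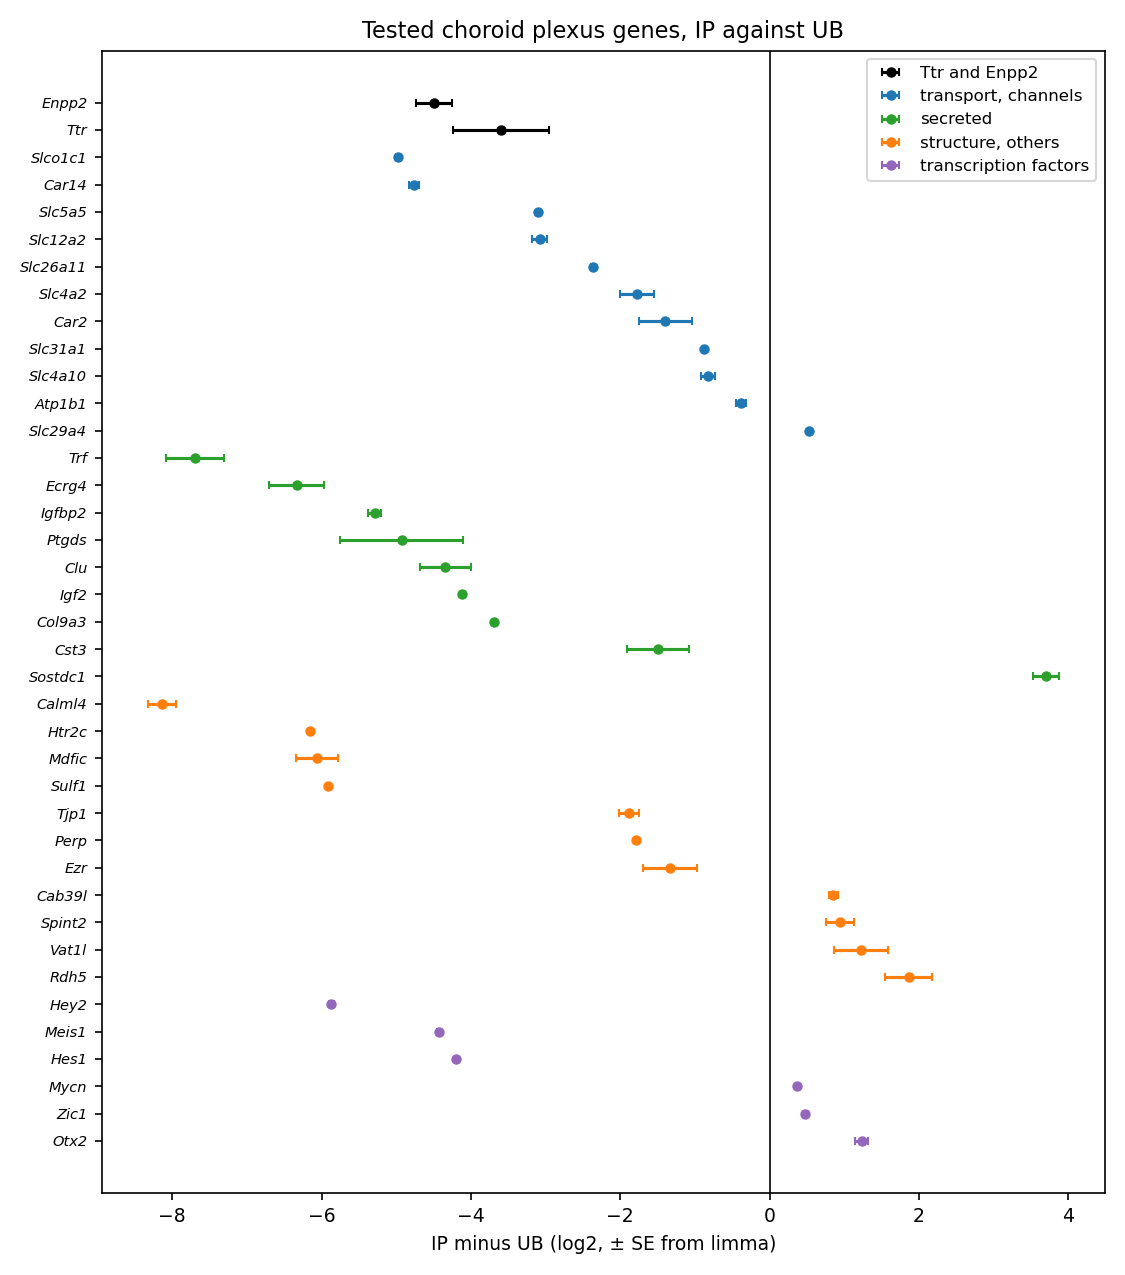
Log2 difference of IP minus UB with its SE from limma (horizontal axis) for Ttr, Enpp2 and the 37 tested genes of the choroid plexus lists (vertical axis), coloured by role. Ttr (-3.60) and Enpp2 (-4.50) lie left of 0 with 28 of the 37 listed genes, and Sostdc1 (3.70) is the farthest to the right. Differences of genes under 50 in a fraction depend on the lowest value of that fraction.

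The 11 tested oligodendrocyte genes were all lower in IP (median log2 difference -4.68 with levels under 50 set to 50), with Mog, Aspa and Ermn at least 32.3-fold, 25.6-fold and 56.9-fold lower. The linear levels of all 12 listed oligodendrocyte genes with a probe set summed to 357 to 420 on the IP arrays and to 28845 to 33249 on the UB arrays. The tested oligodendrocyte genes were thus lower in IP, as Enpp2 was, but so were most tested ependymal, astrocyte and meningeal genes. The part of oligodendrocyte transcripts in the Enpp2 difference was not tested. Ependymal genes, from the cells that line the ventricle, were lower for 10 of 11 tested (median -2.44, likewise), with Ccdc153, Tmem212 and Ak7 at least 55.6-fold, 7.498-fold and 6.95-fold lower. The other, Dnah11, was at least 1.16-fold higher. All 17 ependymal genes with a probe set summed to 824 to 952 in IP and to 6585 to 9330 in UB. Foxj1, the defining transcription factor gene of these cells, was at 2.44 to 2.61 in UB. The 7 choroid plexus genes summed to 1054 to 3061 in IP and to 15810 to 39352 in UB, nearly all of it from Ttr and Enpp2.

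Markers of further cells were checked in the same fit. Astrocyte genes were lower for 10 of 11 tested, 11 with the block (S100b, Gjb6 and Slc1a2 at least 29.5-fold, 17.9-fold and 15.2-fold), microglial genes for 3 of 4 (C1qb, Csf1r and Aif1 at least 5.66-fold, 3.78-fold and 1.64-fold) and meningeal genes for 6 of 7 (Aldh1a2, Gjb2 and Dcn at least 3.00-fold, 2.95-fold and 2.62-fold). Endothelial genes were lower for 3 of 5, with Itm2a and Ramp2 at least 4.43-fold and 1.59-fold lower and Esam at least 4.09-fold higher. Of 2 pineal genes tested, Sag was at least 4.04-fold lower and Rom1 3.64-fold higher, and neither of 2 red cell genes was tested. All 11 habenula genes were called higher in IP, where 30.9% of all tested probe sets were. Among them were the vesicular acetylcholine transporter gene Slc18a3 (at least 68.8-fold), the choline transporter gene Slc5a7 (at least 1.57-fold) and Gng8 (7.68-fold). That list was chosen with earlier results of these data known, so it is no check of the labels.

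Partners of the 7 genes were counted next, and few of them had signal. Of the thyroid hormone and retinol genes that work with Ttr, 2 of 12 were tested: Slco1c1 was lower as given, and the thyroid hormone receptor gene Thra differed by 0.12 ± 0.29 (adjusted p = 0.733). In the chloride channel family of Clic6, Clic4 and Clic1 were at least 7.70-fold and 1.64-fold lower. Gdap1, listed with them but not of that family, differed by -0.03 (limma, adjusted p = 0.870). For klotho, 2 of 11 listed genes were tested and both were lower. Gal3st1, a sulfotransferase gene of myelin listed with klotho but not of its family, was at least 4.60-fold lower. The growth factor receptor gene Fgfr2 was at least 1.75-fold lower. Fgfr2 lost its call with quantile normalization, with equal medians of all probe sets, and without preparation 2 or 3.

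Of the 7 folate genes tested, 4 were lower and 2 higher, and with the preparation as a block 3 were lower, Mthfd1 losing its call (limma, adjusted p = 0.0681). Aldh1l1, an astrocyte gene of folate metabolism, was at least 3.76-fold lower, the mitochondrial enzyme gene Mthfd1l at least 2.97-fold and Mthfd2 2.63-fold, the last with its sign turned (0.16 on the log2 scale) under equal medians and its call lost without any 1 of the UB arrays. The lysophosphatidic acid side of Enpp2 had 5 of 7 tested genes lower and 0 higher, or 6 lower with the block, with the lipid phosphatase genes Plpp3 at least 16.485-fold and Plpp2 7.85-fold lower and Plppr4 10.2-fold lower. The prolactin receptor pathway had 5 of 8 lower and 3 higher, with the phosphatase gene Ptpn11 at least 1.53-fold and the kinase gene Jak1 3.86-fold lower and the signalling inhibitor gene Cish 2.33-fold higher. Of 11 other aquaporin genes only Aqp4, the astrocyte water channel, was tested, and it was at least 1.81-fold lower.

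The genes nearest to Ttr in their pattern over the 6 arrays, by the root mean square difference of log2 values centred per gene, were Hsd17b7 (0.48), Gsn (0.55), Dusp16 (0.57), Strip2 (0.57) and Coro2a (0.58). Hsd17b7 encodes an enzyme of cholesterol synthesis and Gsn the actin-severing protein gelsolin. All 5 were lower in IP and highest on UB array 1 among the UB arrays, which their choice by likeness to Ttr favours. Hsd17b7, Strip2 and Coro2a were under 50 on all 3 IP arrays, where their pattern is not measured. In preparation 2 the difference of Gsn was -3.16, against -1.99 for Ttr, so the high IP array 2 of Ttr was not matched closely. Enpp2 was at 0.67 and ranked 35 among 8603 tested genes with a name. The arrays are shared by all genes, and no test was made of this likeness.

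On each array 7533 to 7579 probe sets (IP) or 8618 to 8659 (UB) reached a level of 50. Precision is limited by the number of arrays, 3 per fraction. In the main fit the p-values rest on the spread among the arrays of each fraction, moderated over the tested probe sets. The preparation entered only the fits with a block and the F-test. Where a gene had equal values on all arrays of a fraction, its spread there was not measured.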

How the data were processed

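The authors deposited log2 values, 1 per gene, made with GCRMA, per the submitters' processing notes, and normalized within groups, per the series design; the sources used here do not give a version. The lowest value differed between IP (2.10) and UB (2.05), so the fractions were normalized apart. All 16464 probe sets in the platform annotation carried their gene number as ID. Enpp2 and Prlr, among 842 probe sets it does not list, were named through that number in RefSeq (GRCm38.p6), and the rest stay unnamed.

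IP arrays were shifted by the mean difference of 18 biotinylated controls (0.016, log2), as the submitters recommend. Probe sets with at least 3 of 6 arrays at 50 or more (8960) were tested with limma 3.58.1 (R 4.3.3), with a mean-variance trend, two-sided, Benjamini-Hochberg adjusted, and calls at 0.05. Folds between arrays of a fraction, and counts of genes changed by a given fold, were taken with levels under 50 set to 50. The limma fits were run on simulated data with independent normal noise of the UB spread. Those data lack the tied values and the pairing of these arrays, so they do not show how the fits behave here. The labels tie UB to IP by preparation number, and deviations of same-numbered arrays correlated at 0.59, 0.48 and 0.28. Those of differently numbered arrays correlated at -0.51 to 0.31. The highest of these, IP array 3 with UB array 2, lay above that of the 2 arrays numbered 3. Gene lists and members were chosen with earlier results of these data known. Named genes were the 7 genes, the 3 largest differences per list and the 5 genes nearest to Ttr, and every other gene named (among them Ptgds, Clu, Cst3, Cldn1, Cldn2, Cldn3, Lmx1a, Slc4a5, Slc29a4, Aanat, Crx, Foxj1 and Mthfd1) was chosen after its values were seen. Listed symbols were updated through RefSeq synonyms. Figures used Python 3.11.15 and matplotlib 3.10.9.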

Additional observations from a re-analysis of the deposited data

How the results depend on the processing

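The calls of Ttr and Enpp2 as lower were recomputed under 20 alternatives each. Enpp2 was called in all 20, with log2 differences from -4.79 to -2.94. Ttr was called in 18, from -4.40 to -2.04, and was not called without both arrays of preparation 1 (-3.11) or of preparation 3 (-3.29), where 1 of the 2 genes stayed called. Leave-outs of arrays or preparations gave 1 to 2 calls. With no filter on dim probe sets, 5 of the 7 choroid plexus genes were called lower and Aqp1, at the lowest value on every array, higher (limma, adjusted p = 3.75e-14), since those under 50 then entered. With no filter the choroid plexus lists had 48 genes called lower and 34 higher, of 86, and with tied probe sets left out 14 lower, since fewer genes were tested. The block on preparation number changed no call of Ttr (adjusted p = 0.0268) or Enpp2 (adjusted p = 0.00238). In the choroid plexus lists 22 of the 37 calls held under every setting tried other than leaving out tied probe sets, and 15 were lost under at least 1, Car2 with the preparation block among them (adjusted p = 0.0510). In other lists the block ended the call of Mthfd1 (0.0681) and gave one to Agt (0.00636) and Plpp1 (0.0124). Of the values for UB array 1, that of Enpp2 reversed from 0.32 to -0.18 with controls centred per array. That centring moves all genes of an array by the same amount, and it lowered Ttr from 1.38 to 0.87 and Clic6 from 2.19 to 1.69. The size of every excess on UB array 1 thus depends on the scaling of the arrays. Why the controls differed between the UB arrays was not tested. By the values as deposited 4 list genes and 3 of the 7 passed the 2-fold rule for UB array 1. With levels under 50 set to 50, 2 and 1 passed, the 1 being Ttr. With controls centred per array 2 and 1 passed, but the 1 was then Clic6, which reached 50 on UB array 1 only. Ttr did not pass there, at 0.87 above the mean of the other UB arrays. At 1.5-fold 7 list genes passed as deposited. For the preparation F-test no alternative gave a call for Ttr (adjusted p from 0.0901 to 1) or Enpp2 (from 0.120 to 1). Levels under 50 have no usable order or fold here, which limits what can be said of Clic6, Kl, Folr1, Prlr and Aqp1.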
